A study of Homo sapiens with 24 samples.

Results

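Fractions 7 and 8 of sucrose density gradients were compared with fractions 3 and 4 for the RNA they held in cells labelled 293T, a human embryonic kidney line, that carried the D146N form of DIS3. All cells of the series carried the short hairpin DIS3-sh2 against DIS3 and a rescue copy of DIS3, which was either D146N or the wild-type protein (WT), so the controls share the knockdown. The libraries were chosen by their labels and column names: 6 D146N libraries of fractions 7 and 8 and 6 of fractions 3 and 4, 12 of 24 libraries in all, with 3 replicates per fraction. The 12 WT libraries of the same fractions and replicates served to show where D146N differed. The RNA was cytoplasmic and depleted of ribosomal RNA. The series text calls the replicates biological, and whether a rescue line was 1 clone is not given in the sources used here. A parental line without the hairpin is not analysed here. Which end of the gradient fraction numbers started from is not in the labels, so fractions are called by number only, and a difference of D146N from WT cannot be told apart from gradients numbered in opposite order or from labels swapped in 1 genotype.

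In a sucrose density gradient, particles sediment according to size and density, so that small RNA and protein particles, ribosomal subunits, single ribosomes and polyribosomes separate. The RNA exosome, whose catalytic subunit is DIS3, trims and degrades many noncoding RNAs and mRNAs from their 3' ends. Besides this exonuclease, DIS3 has an endonuclease in its PIN domain, and D146N replaces an aspartate of that active site. Circular RNA, the subject of the study's title, was not analysed here, and all comparisons are of genes.

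Fractions 7 and 8 held 21.2 to 22.9 M counts per library (M, 1000000 counts) and fractions 3 and 4 held 23.8 to 28.1 M. The 10 most abundant rows took 48.6% to 50.2% of counts in fractions 7 and 8 and 76.4% to 77.6% in fractions 3 and 4. Rows that repeat the counts of another row are among them. Such repeats held 12.9% of counts in fractions 7 and 8 and 28.4% in fractions 3 and 4. Between 14690 and 14722 rows reached 1 CPM (1 count in each 1000000 of the library total) in fractions 7 and 8, against 9388 to 9685 in fractions 3 and 4. No replicates of a fraction agreed within counting noise (chi-square per degree of freedom 1.75 to 4.88), and each was counted as a sample. WT fraction 8 replicate 3 stood apart: its scaling factor was 0.531 against 0.349 to 0.375 in the other 5 WT libraries of fractions 7 and 8. Its Spearman correlation with those 5 across 4100 genes was 0.77 to 0.78, against 0.98 among them. It enters the shared estimate of spread, and so the printed errors, and the WT contrast. Counts of calls, the comparison with WT and the mitochondrial mRNAs are given with and without it.

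Counts of DIS3 (ENSG00000083520.15), which spans 72752169 to 72781900 on chromosome 13 of hg38, were found in all 12 libraries. DIS3 stood at 7.79, 8.96 and 9.63 CPM (lowest, median and highest of 6) in fractions 3 and 4 and at 86.7, 98.6 and 114.5 CPM in fractions 7 and 8. The groups did not overlap, and 81.1% of all genes tested were apart in the same direction. Endogenous and rescue transcripts add up in this count, so it checks neither the knockdown nor the mutation. Each gene's change is given on 2 scales. The share log2 fold change uses library totals alone. The scaled log2 fold change uses TMM factors (trimmed mean of M values), which set the typical gene near 0. DIS3 rose by 3.49 in share and by 0.56 (SE 0.08, adjusted p 1.85e-07) on the scaled measure, where a positive value means a rise beyond that of the typical gene.

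Fractions 7 and 8 held a smaller share of 3 abundant noncoding RNAs than fractions 3 and 4. RNase P RNA, the catalytic RNA that trims the leader from precursor tRNAs, took 14.1% ± 0.221 of counts (SD, n = 6) in fractions 3 and 4 and 0.593% ± 0.0185 in fractions 7 and 8, a 23.8-fold lower share. RNase MRP RNA, its relative in ribosomal RNA processing, went from 1.79% ± 0.148 to 0.583% ± 0.0109. 7SK RNA, the scaffold that holds the transcription elongation kinase P-TEFb inactive, went from 7.10% ± 0.0473 to 2.05% ± 0.0310. These 3 RNAs were lower in each of the 6 libraries of fractions 7 and 8 than in any of fractions 3 and 4. Each of the 3 has a second row of nearly the same counts, which stays in the library total. The shares given are those of 1 row, and whether reads were divided or counted in both rows was not tested.

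Other small RNAs moved the opposite way in share. Cajal body RNAs, which guide the modification of spliceosomal RNAs, rose 13.3-fold, from 0.285% ± 0.00753 to 3.78% ± 0.160 (SD, n = 6). SCARNA2 alone made up 0.171% and 3.38%, and the rest of the class rose 3.51-fold. Small nucleolar RNAs, most of which guide modification of ribosomal RNA, rose from 0.106% to 0.543%. SNORD3A, a U3 gene named after its value was seen, held 0.0686% and 0.486% of the library. The rest of the class rose 1.53-fold, and box H/ACA members went from 0.0161% to 0.0117%. Mitochondrially encoded mRNAs rose from 1.09% to 3.73%, and the few counts of mitochondrial rRNAs and tRNAs rose from 0.00361% to 0.0212%. Y and vault RNAs, cytoplasmic small RNAs of the Ro and vault particles, rose from 0.00194% to 0.00793%. Each class shift here was beyond the spread between libraries.

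7SL RNA, the backbone of the signal recognition particle, took 25.6% ± 0.632 in fractions 3 and 4 and 29.7% ± 0.475 in fractions 7 and 8 (SD, n = 6), but the direction reversed when each set of rows with identical counts was kept once. Rows that repeat the counts of another row held 28.4% of counts in fractions 3 and 4 and 12.9% in fractions 7 and 8. RPPH1, the RNase P RNA gene, and RN7SK and RMRP, the 7SK and RNase MRP genes, each had 1 such repeat. So did SCARNA2 and the 7SL gene RN7SL2. Repeats stay in the totals behind the share changes of single genes, which were not refitted with repeats kept once. Spliceosomal small nuclear RNAs went from 0.0165% to 0.0194% and also reversed, without passing the test, when repeats were kept once.

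Nuclear encoded mRNAs held 15.9% ± 0.386 of counts in fractions 3 and 4 and 39.7% ± 0.567 in fractions 7 and 8 (SD, n = 6). Their makeup differed too. Ribosomal protein mRNAs were 59.996% of these mRNA counts in fractions 3 and 4 and 10.7% in fractions 7 and 8, and in share of the whole library they fell from 9.56% to 4.26%. Replication dependent histone mRNAs, which end in a stem-loop without a poly(A) tail, rose from 0.842% to 3.33% of the library, and other mRNAs from 5.53% to 32.1%. Long noncoding RNAs rose from 0.448% to 1.23%. All 18 classes compared passed an exact two-sided permutation test of 6 libraries against 6 (adjusted p 0.00229 for 17 and 0.00433 for spliceosomal RNAs, where the smallest unadjusted p possible is 0.00216). The 6 libraries of a side are 2 fractions with 3 replicates each, and with 1 value per replicate number, 3 against 3, no p below 0.1 is possible.

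**Figure D1:**
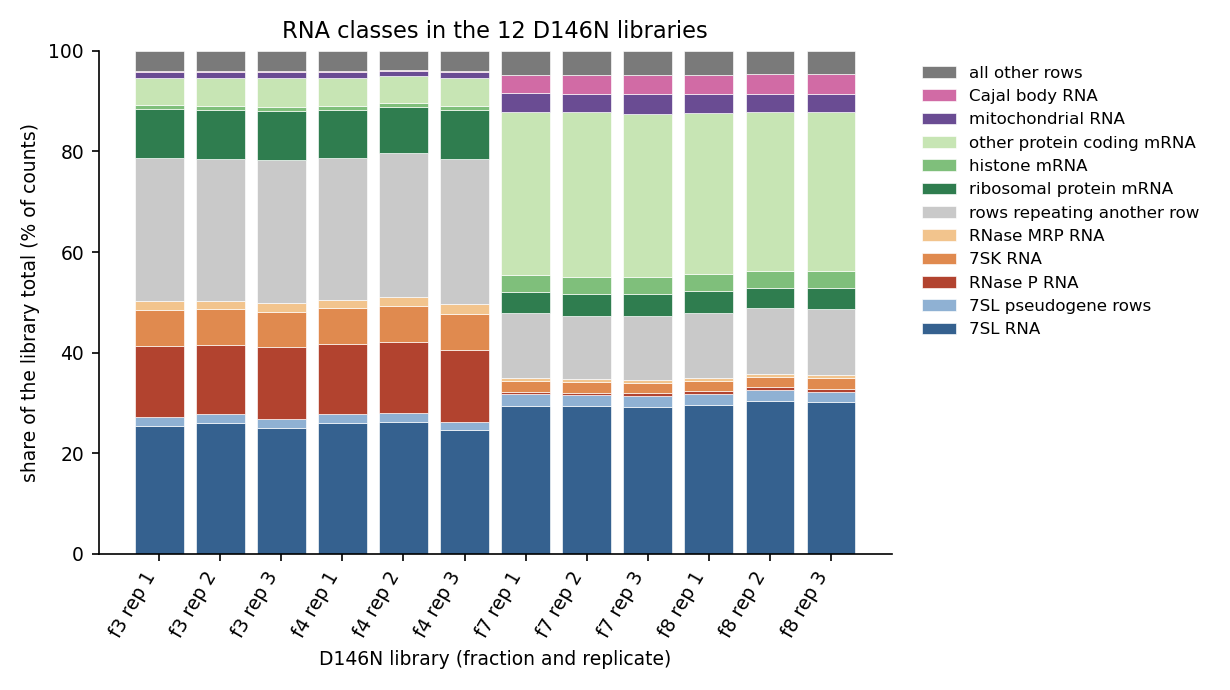
Share of the library total (percent of counts) by RNA class as stacked bars, 1 bar for each of the 12 D146N libraries, labelled by fraction and replicate. The RNase P RNA segment spans 13.8% to 14.3% in fractions 3 and 4 and 0.560% to 0.610% in fractions 7 and 8, where other protein coding mRNAs average 32.1%. The larger 7SL segment in fractions 7 and 8 reverses when rows with identical counts are kept once.

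Because composition differed so strongly, most genes gained share. On library totals, 16800 of 18907 genes tested (88.9%) were called higher in fractions 7 and 8 and 772 (4.08%) lower, at an adjusted p under 0.05 in edgeR's quasi-likelihood test. With TMM scaling, 5657 (29.9%) were called higher and 5730 (30.3%) lower, 60.2% in all. The median gene stood at 3.00 in share and at 0.10 on the scaled measure. The 2 measures differ by a nearly constant 2.92, so a gene whose scaled value was negative by less than 2.92 gained share, but by less than the typical gene. In CPM, 15326 genes (81.1%) had every library of fractions 7 and 8 above every library of fractions 3 and 4, and 548 (2.9%) had every library below. In bulk libraries of a fraction, fewer particles of a kind and less RNA per particle cannot be told apart.

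The 2 scales together divide the genes into bands. A band of 772 genes (4.08%) was lower on both, among them 222 protein coding genes, 99 long noncoding RNA genes and 149 pseudogene rows, and it held 59.4% of counts in fractions 3 and 4 but 11.8% in fractions 7 and 8. A further 3708 genes (19.6%) were lower on the scaled measure while their share rose, and 1250 were lower on the scaled measure with no call in share. All 5657 genes called higher after scaling were also higher in share. They included 5114 protein coding and 86 long noncoding RNA genes, and their part of all counts went from 2.23% to 28.7%. At 2-fold or more after scaling, 1064 genes were higher and 4089 lower. The 1064 became 1703 to 1763 when any 1 of the 6 libraries of fractions 7 and 8 was left out, and the median gene then stood at 0.236 to 0.241 in place of 0.10.

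**Figure D2:**
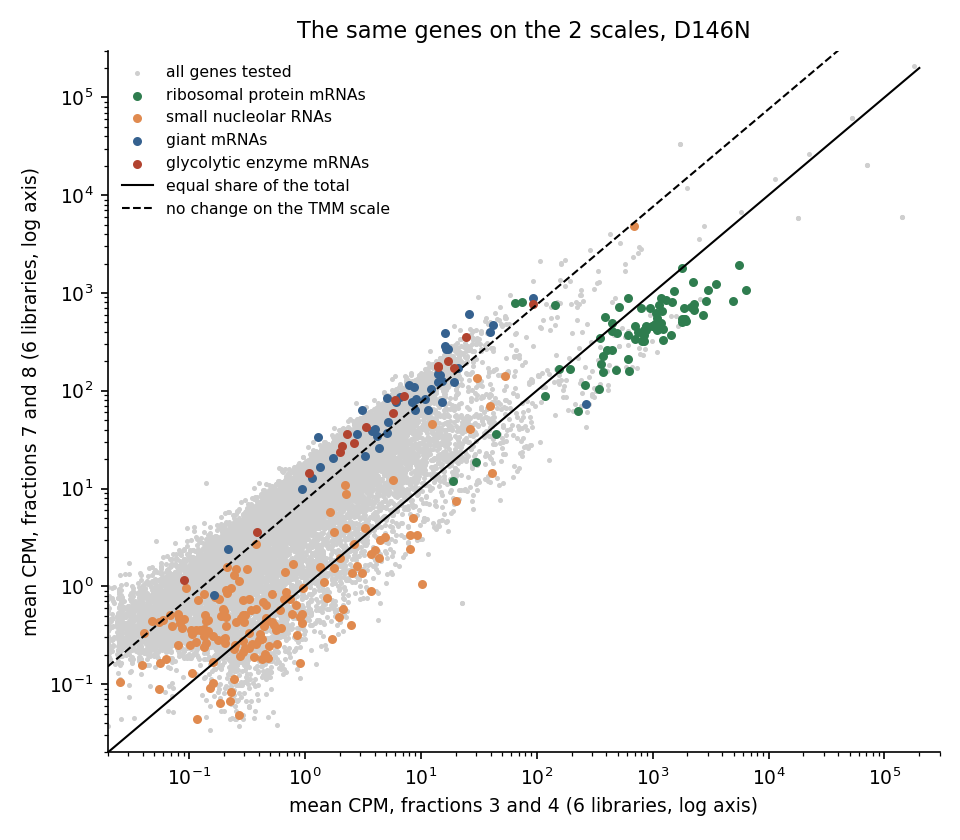
Mean CPM of each tested gene in fractions 7 and 8 against fractions 3 and 4 of D146N, both axes log, with 4 gene groups coloured and genes below the axis limits not drawn. The solid line is an equal share of the total and the dashed line no change after TMM scaling. Most ribosomal protein mRNAs lie below the solid line and most giant and glycolytic enzyme mRNAs near or above the dashed line.

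Among mRNAs, the deepest falls on both scales belonged largely to ribosomal proteins. By the naming rule, ranked genes had to be called with the same sign on both scales and show no overlap between the sides. Neither property is therefore a separate result for them. Of all genes tested, 81.1% lay apart upward in CPM and 2.9% downward. RPL12, a protein at the base of the ribosomal stalk (chromosome 9, 127447674 to 127451406), stood at 4589.6, 4979 and 5080.2 CPM in fractions 3 and 4 and at 786, 832 and 853 CPM in fractions 7 and 8. The scaled change was -5.50 (SE 0.09, adjusted p 5.19e-33) with -2.57 in share. RPLP1, an acidic protein of the stalk itself (chromosome 15, 69452818 to 69456205), ran from 6007 to 6632 CPM in fractions 3 and 4 with a median of 6349, and from 1052 to 1113 CPM in fractions 7 and 8 with a median of 1079. Its scaled change was -5.49 (SE 0.12, adjusted p 2.19e-30), and its stalk partner RPLP2 changed by -4.83. RPS12 of the small subunit stood at 2537, 2725 and 2812 CPM in fractions 3 and 4 and at 584, 595 and 618 CPM in fractions 7 and 8, and changed by -5.11. RPS13 (-4.88), RPL26 (-4.83) and RPL21 (-4.80) were also among the protein coding genes ranked first. Ribosomal protein genes have many processed pseudogenes, and how reads were divided between them is not given in the sources used here.

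Of the genes ranked first, 4 lay outside the ribosome. BBLN, a small coiled coil protein (chromosome 9, 128160265 to 128163924), stood at 62.1, 67.3 and 71.3 CPM in fractions 3 and 4 and at 13.3, 14.5 and 18.6 CPM in fractions 7 and 8, and changed by -5.08 (SE 0.09, adjusted p 6.44e-33). NME2, a nucleoside diphosphate kinase, stood at 390.0, 413 and 419.7 CPM and at 92.3, 101 and 108 CPM, and changed by -4.94. BOLA3, a mitochondrial factor for iron-sulfur proteins, stood at 61.8, 64.5 and 66.4 CPM and at 15.9, 16.7 and 19.1 CPM, and changed by -4.84. Each had separate groups and a lower share as well as a lower scaled value, as the naming rule required. NBEAL1, at -4.81, is uncertain: its span holds the ribosomal pseudogene RPL12P16, itself at -5.55 in these counts, and whether reads were shared was not tested.

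Among genes with at least 10 CPM on average that met the naming rule, the 12 with the largest rises on both scales included cytoskeletal and scaffold proteins beside secreted and other proteins. DIAPH1, a formin that nucleates actin filaments (chromosome 5, 141515021 to 141619000), stood at 28.5, 31.3 and 33.3 CPM in fractions 3 and 4 and at 875, 911 and 957 CPM in fractions 7 and 8. It changed by 1.95 (SE 0.07, adjusted p 3.24e-23) after scaling and by 4.88 in share. SPECC1, a coiled coil protein of the cytospin family (chromosome 17, 20009359 to 20319026), stood at 18.3, 19.5 and 19.9 CPM and then at 438, 454 and 498 CPM, a change of 1.65 (SE 0.06). AHNAK, a giant scaffold protein (chromosome 11, 62433544 to 62546806), stood at 14.2, 16.4 and 17.6 CPM and then at 371, 387 and 397 CPM, a change of 1.64 (SE 0.06). In these 3 genes every library of fractions 7 and 8 lay more than an order of magnitude above fractions 3 and 4 in CPM.

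PRKCA, a protein kinase C (chromosome 17, 66302613 to 66810743), stood at 5.14, 5.86 and 6.73 CPM in fractions 3 and 4 and at 136, 141 and 149 CPM in fractions 7 and 8, and changed by 1.64 (SE 0.07). MACF1, which links microtubules to actin (chromosome 1, 39084167 to 39487138), stood at 23.4, 26.4 and 28.2 CPM and then at 589, 601 and 625 CPM, and changed by 1.59 (SE 0.07). ALB, serum albumin (chromosome 4, 73404287 to 73421482), stood at 4.57, 5.73 and 6.67 CPM and then at 125, 132 and 142 CPM, and changed by 1.61 (SE 0.18). All 3 kept their groups apart, as the naming rule required. AHNAK2 (1.75), the tankyrase partner TNKS1BP1 (1.64), KANK2 (1.52), the collagen COL4A1 (1.52), the zinc finger protein ZNF316 (1.51) and the Hsp90 cochaperone CDC37 (1.46) completed the first 12. In all, 2853 protein coding genes met the naming rule upward and 159 downward.

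**Figure D3:**
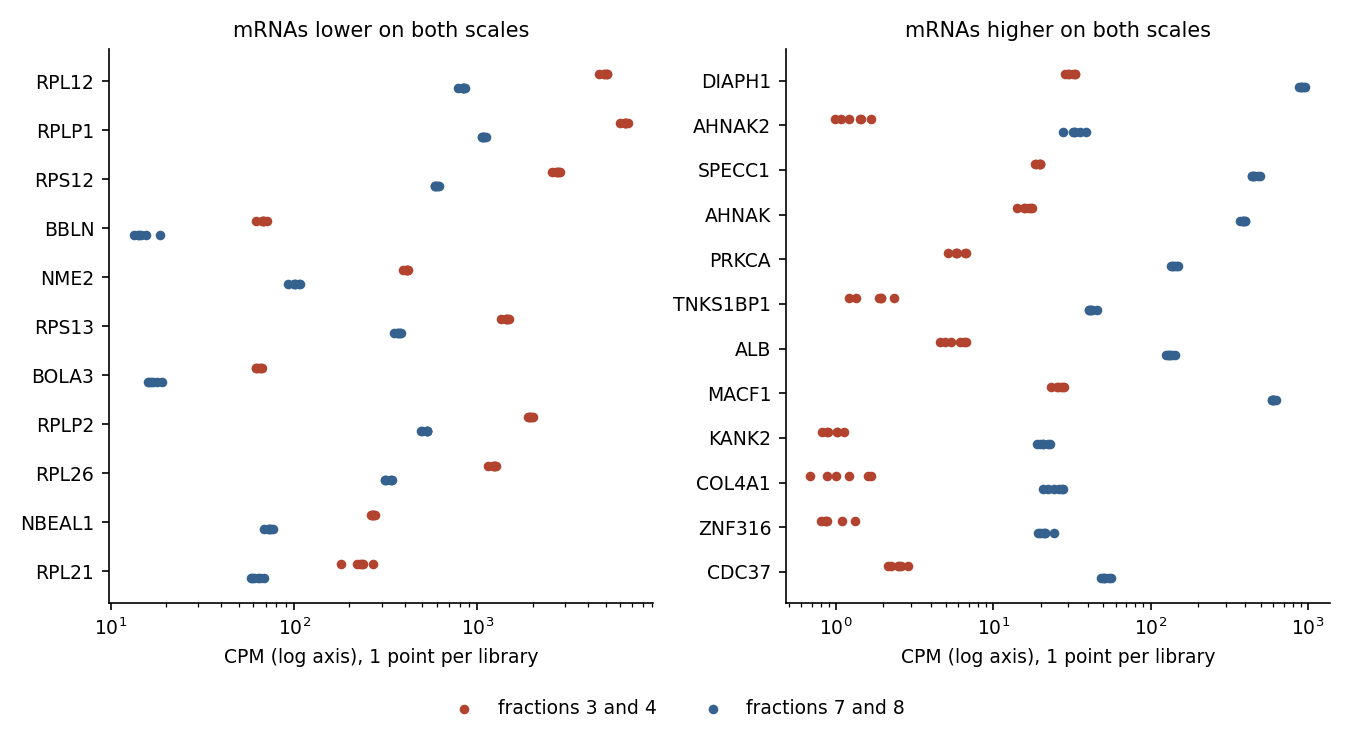
CPM (log axis) of protein coding genes ranked first, 11 lower and 12 higher, 1 point per D146N library, fractions 3 and 4 and fractions 7 and 8 in separate colours. The groups do not overlap in any of these genes, which the naming rule required, and in the left panel most genes encode ribosomal proteins.

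The start sites of leading mRNAs are shown because many mRNAs for ribosomal proteins begin with a terminal oligopyrimidine (TOP) tract, a run of C and T after an initial C that places their translation under mTOR control. Of the 24 leading genes, 22 had a promoter in the RefSeq table of GRCh38.p14. Each window holds 15 bases before and 15 from the RefSeq start, on the gene's own strand, with the longest run of C and T in capitals. The first 7 genes fell on both scales and the last 6 rose. The AHNAK window is at a start inside the annotated span of the gene.
RPLP1: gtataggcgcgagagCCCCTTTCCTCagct
RPS12: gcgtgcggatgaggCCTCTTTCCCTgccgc
RPLP2: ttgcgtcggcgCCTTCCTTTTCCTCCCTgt
RPL26: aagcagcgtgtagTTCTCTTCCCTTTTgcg
RPL12: ccgcgcgatttccggCCTCTCggctttcgg
BBLN: gggcggggcaccggCCTCTgggcggagatc
BOLA3: ccgcgTCTTTCgggcatacagtgacctcgg
DIAPH1: ggcgcggcggCTggctaaagagcgactggg
SPECC1: gcgggTCCCTCTCCTgagcatcagtgagcg
AHNAK: gatggCCCCCgccccagagcctggcccggc
PRKCA: gccgggcaccgggctgtcagtgagCCTggg
MACF1: CCCTTTCTCCTTCagatcacttctccctgg
ALB: ttccctccgtttgtcctagCTTTTCTCTTC

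These windows lie at chr15:69452803-69452832 for RPLP1, chr6:132814554-132814583 for RPS12, chr11:809952-809981 for RPLP2, chr9:128160250-128160279 for BBLN, chr17:20009344-20009373 for SPECC1, chr17:66302598-66302627 for PRKCA, chr4:73404272-73404301 for ALB and chr1:39084152-39084181 for MACF1, all on the plus strand. On the minus strand they lie at chr17:8383179-8383208 for RPL26, chr9:127451392-127451421 for RPL12, chr2:74147898-74147927 for BOLA3, chr5:141618986-141619015 for DIAPH1 and chr11:62545812-62545841 for AHNAK. The longest runs were 17 bases in RPLP2, 14 in RPL26, 11 in RPLP1 and RPS12, 6 in RPL12 and BOLA3, and 5 in BBLN. Genes that rose held runs too, of 10 bases in SPECC1 and 13 in MACF1, both before the start, of 11 in ALB, after the start, and of 2 in DIAPH1.

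Runs of at least 8 pyrimidines, searched on the gene's strand only, were found in 76.2% of the windows of 63 ribosomal protein genes and in 13.4% of all 27305 promoters. Among tested protein coding genes lower on both scales the share was 36.2% of 188, but it was 18.9% of the 132 that are not ribosomal protein genes. It was 13.2% where the gene was lower only after scaling, 12.0% where it was not called and 13.3% where it was higher. Of 34 giant mRNA genes, 26.5% held such a run. A run in these letters is a description of the window and does not show a TOP mRNA.

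Ribosomal protein mRNAs are the structural part of the translation machinery. Of 47 large subunit members, 45 fell after scaling and 39 of them also in share, with medians of -3.96 scaled and -1.04 in share, beside 0.10 and 3.00 over all genes. All 32 small subunit members fell after scaling and 30 also in share, with medians of -4.05 and -1.12. The 2 large subunit members that rose were RPL4 and RPL3, both among the longest proteins of that subunit. RPL4 went from a median of 64.9 to 789 CPM (0.70, SE 0.07) and RPL3 from 74.0 to 801 CPM (0.52, SE 0.07).

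Translation factors and other mRNAs known to carry TOP tracts split. Of 22 members, 11 rose, 8 fell and 3 were not called, with a scaled median of 0.25 and a share median of 3.18. TPT1, the translationally controlled tumour protein, went from 1006 to 483 CPM (-3.97), BTF3 from 265 to 178 CPM (-3.51) and NACA from 356 to 282 CPM (-3.25), lower on both scales. BTF3 and NACA pair in the complex that binds nascent chains at the ribosome. EEF1B2, an exchange factor for elongation factor 1A, stood at 227 and 214 CPM, lower after scaling (-3.01) but not called in share (-0.08, adjusted p 0.299). The count of members lower was 5 without fraction 8 replicate 3. Aminoacyl tRNA synthetases, which charge tRNAs, rose in 16 of 20 (median 0.44), among them VARS1 (0.87), QARS1 (0.78) and TARS1 (0.56). RARS1 fell after scaling (-1.89) while its share rose (1.04). FARSA stood at -0.19 and lost its call without fraction 3 replicate 1 or 2, fraction 4 replicate 2 or any 1 library of fractions 7 and 8, at -0.01 to -0.17.

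Mitochondrial proteins made in the cytosol mostly gained share by less than the typical gene. Among 78 mitochondrial ribosomal protein mRNAs, 52 fell and 11 rose after scaling (median -1.07), while 70 rose in share (median 1.86). That part rising in share was near the 88.9% of all genes. MRPL14 went from 24.5 to 18.4 CPM (-3.30) and MRPL36 from 18.8 to 14.9 CPM (-3.25), whereas MRPS2 went from 3.26 to 43.3 CPM (0.85) and MRPS5 from 1.74 to 20.1 CPM (0.61). Respiratory chain mRNAs split too. Of 37 nuclear complex I mRNAs, 33 fell after scaling and 4 rose (median -1.68), and 36 rose in share. NDUFV2 fell on both scales (20.2 to 14.1 CPM, -3.47), NDUFB8 fell after scaling with a rising share (38.5 to 53.1 CPM, -2.44), and the core subunits NDUFV1 (0.63) and NDUFS1 (0.30) rose, as did NDUFA9.

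Complexes II to V gave 33 lower, 5 higher and 4 not called of 42 after scaling, with a median of -1.91, and 34 rose in share. Within ATP synthase the members went both ways. ATP5PF, coupling factor 6 of the stalk, stood at 82.7, 88.7 and 94.0 CPM in fractions 3 and 4 and at 42.99, 48.2 and 50.4 CPM in fractions 7 and 8 (-3.82, SE 0.06). ATP5F1B, the catalytic beta subunit, stood at 14.6, 15.9 and 17.6 CPM and then at 223, 231 and 247 CPM (0.94, SE 0.06). The groups were apart in both, in opposite directions, and ATP5F1A, the alpha subunit, moved like its partner (0.92). COX5A of cytochrome oxidase went from 75.7 to 59.2 CPM (-3.27), while UQCRC1 (0.81) and SDHA (0.48), large subunits of complexes III and II, rose.

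Mitochondrial import factors split as well. Of 21 tested, 13 (61.9%) fell and 4 (19.0%) rose after scaling (median -1.33), and 16 rose in share. The small TIMM9 (-3.33) and TOMM5 (-3.20) fell on both scales, and the channel TOMM40 (0.61) and receptor TOMM70 (0.54) rose. In the proteasome, 17 of 35 rose and 10 fell (median 0.22). PSMB10, an inducible catalytic subunit, fell on both scales from 2.24 to 1.44 CPM (-3.49), and PSMA2 fell after scaling (-1.55) with a share change of 1.38.

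Mitochondrially encoded mRNAs all gained share, and 9 of 13 fell after scaling (median -1.09). MT-CO2 went from 2513 to 3552 CPM (-2.41), MT-CO3 from 2854 to 4938 CPM (-2.14) and MT-ND3 from 244 to 399 CPM (-2.23), with share changes of 0.51, 0.79 and 0.70. MT-ND6 was the only mRNA of the mitochondrial light strand and rose most: 9.001, 10.8 and 12.3 CPM in fractions 3 and 4 and 138, 169 and 179 CPM in fractions 7 and 8 (1.01, SE 0.12, adjusted p 1.23e-07). MT-ND5 (0.32) and MT-CYB (0.31), the mRNAs on either side of it, rose slightly after scaling. Strand use in counting is not given in the sources used here, so MT-ND6 reads and reads antisense to it cannot be told apart. MT-RNR2, the large ribosomal RNA, which depletion targets, varied most between replicates: 0.0533 to 9.89 CPM in fractions 3 and 4 and 60.9 to 94.4 CPM in fractions 7 and 8 (2.92, SE 1.002, adjusted p 0.0187). With fractions summed per replicate number it was 1.88 and not called. Of 23 mitochondrial rRNAs and tRNAs tested, 12 fell and 3 rose after scaling: MT-TR (-4.00) and MT-TL2 (-4.33) fell on both scales, and MT-TE rose (1.41).

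Histone mRNAs gained share yet stayed below the typical gene. Of 59 tested, 49 fell after scaling (median -0.95) and 57 rose in share (median 1.98), and none fell on both. H2BC21 went from 453 to 803 CPM (-2.09 scaled, 0.84 in share), and H3C6 stood at 9.77 and 10.1 CPM (-2.88 scaled, 0.05 in share and not called there). H3C3, the 1 member called higher (1.995, adjusted p 0.0292), was under 2 CPM in every library and lost its call without fraction 3 replicate 2 or 3 or fraction 4 replicate 2 or 3, at 1.74 to 1.93. Without any 1 library of fractions 7 and 8, 2 or 3 members were higher.

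Several small noncoding RNAs also fell on both scales. RPPH1 (chromosome 14, 20343071 to 20343411) took 13.8%, 14.1% and 14.3% of counts in fractions 3 and 4, against 0.560%, 0.595% and 0.610% in fractions 7 and 8, and changed by -7.50 (SE 0.13, adjusted p 3.23e-33). RMRP changed by -4.55, and RN7SK (chromosome 6, 52995620 to 52995951) by -4.72 (SE 0.12), from 7.04% to 7.14% down to 2.02% to 2.11%. RN7SL2, a 7SL gene, changed by -2.68 after scaling but by 0.24 in share, a small rise that was not refitted with repeated rows kept once. RNY1, a Y RNA, rose from 1.04 to 14.7 CPM (0.79) and was the 1 of 12 tested in this list called higher. The number was 2 without fraction 4 replicate 3 or any 1 library of fractions 7 and 8.

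Guide RNAs mostly lay below the typical gene. None of 84 box C/D small nucleolar RNAs tested was called higher after scaling and 64 fell (median -1.95), though 42 rose in share and 14 fell. Among 75 box H/ACA RNAs, 62 fell after scaling (median -2.99), while 24 fell and 18 rose in share. SNORD17 went from 20.01 to 6.997 CPM (-4.38), SNORA73B from 41.5 to 14.4 CPM (-4.46) and SNORA74A also fell on both scales (-4.40). SNORD3B-2, a U3 gene copy, fell after scaling (-2.09) with a share rise of 0.83. Only 84 of 293 and 75 of 152 listed genes passed the filter on low counts, so these counts do not speak for all members.

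Cajal body RNAs held both extremes. SCARNA16 (chromosome 17, 77089307 to 77089493) stood at 21.4, 22.6 and 25.2 CPM in fractions 3 and 4 and at 0.510, 0.585 and 1.14 CPM in fractions 7 and 8 (-7.96, SE 0.20). MIR6516 (-7.98), at 77089417 to 77089497, overlaps it and shares its reads, and SNHG20 (-4.65), which spans both, fell too. SCARNA2 (chromosome 1, 109100193 to 109100612) took 0.159%, 0.171% and 0.181% of counts and then 3.16%, 3.39% and 3.62% (1.38, SE 0.07, adjusted p 7.06e-19). The groups of both were apart, as the naming rule required, but in opposite directions. SCARNA17 (0.96), SCARNA9 (0.90) and SCARNA13 (0.26) rose with SCARNA2, and the other 11 of 15 tested fell after scaling, among them SCARNA7 from 414 to 277 CPM (-3.56). Spliceosomal RNA genes fell in 30 of 36 after scaling (median -2.94), while 16 fell and 14 rose in share. RNU4-2 changed by -3.57 and RNVU1-27 by -4.03.

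Host transcripts carry small nucleolar RNAs in their introns. All 23 small nucleolar RNA host transcripts fell after scaling (median -3.10), and 11 also in share while 11 rose in share. GAS5 went from 1106 to 581 CPM (-3.84) and ZFAS1 from 311 to 105 CPM (-4.47). SNHG5 stood at 276, 300.2 and 320.0 CPM and then at 86.4, 89.7 and 92.1 CPM (-4.67, SE 0.11). CRNDE (chromosome 16, 54918863 to 54928886) stood at 97.1, 106 and 112 CPM and then at 25.7, 30.6 and 33.0 CPM (-4.74, SE 0.10). MIR4426 also fell (-4.77). Of 10 long noncoding RNAs known for nuclear roles, 4 fell and 3 rose after scaling, and all 10 rose in share. Over all genes, 30.3% fell and 29.9% rose after scaling, and 88.9% rose in share. TUG1 (11.4 to 159 CPM, 0.92) and NEAT1 (17.4 to 238 CPM, 0.85) rose with MALAT1, and PVT1 fell after scaling (-2.31) with a share rise of 0.61. Other noncoding genes that met the naming rule upward were HNRNPUL2-BSCL2 (1.18), a readthrough of 2 coding genes, LINC00205 (1.09) and VPS9D1-AS1 (0.91), an antisense RNA.

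Of 15 mRNAs of the exosome, to which DIS3 belongs, and its close partners, all rose in share (median 2.67), as did 88.9% of all genes. After scaling 5 rose and 6 fell (median -0.25). Over the 13441 tested protein coding genes, 38.05% rose and 23.2% fell after scaling (median 0.22). A larger part of the exosome list fell, and whether the list differs from other mRNAs was not tested. EXOSC1, a cap subunit, went from 13.1 to 28.4 CPM (-1.87). Among ring subunits, EXOSC8 from 18.8 to 64.8 CPM (-1.17) and EXOSC4 from 2.98 to 11.04 CPM (-1.05), whereas EXOSC9 went from 4.42 to 52.4 CPM (0.70) and EXOSC6 from 4.24 to 52.6 CPM (0.67). EXOSC2 stood at -0.31 and lost its call without fraction 7 replicate 2 or 3 or fraction 8 replicate 1, at -0.13 to -0.16. Of the nucleases, DIS3 (0.56), DIS3L (0.40) and EXOSC10 (0.29) rose and DIS3L2, which works outside the exosome on uridylated RNA, fell after scaling (-0.88). C1D, a partner of EXOSC10, fell after scaling (-0.996).

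Exosome cofactors gave 7 higher, 1 lower and 7 not called of 15 (median 0.19). TENT4B, a poly(A) polymerase of the TRAMP complex (0.74), NRDE2 (0.42) and SKIC3 of the Ski complex (0.38) rose. ZCCHC7, the zinc knuckle protein of TRAMP, was lower (-0.50) but not without fraction 7 replicate 1 or fraction 8 replicate 2, at -0.26 and -0.30. Without fraction 8 replicate 3, 11 cofactors were higher. In decay from the 5' end, 14 of 35 rose and 12 fell (median 0.12), against 38.05% and 23.2% of protein coding genes (median 0.22). The small ring proteins LSM2 (18.2 to 8.70 CPM, -3.90) and LSM1 (-2.38, 0.55 in share) were among those lower.

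RNA-binding proteins were followed in 2 lists. All 21 hnRNP mRNAs, whose proteins package nuclear pre-mRNA, rose on both scales (median 0.59), among them HNRNPM from 10.4 to 145 CPM (0.89), HNRNPAB (0.82), HNRNPD (0.77) and HNRNPUL1 (0.70). Of 15 Sm and LSm protein mRNAs tested, whose proteins form rings on spliceosomal RNAs, 12 fell after scaling (median -0.87) and 13 rose in share. SNRPD2 went from 155 to 118 CPM and LSM10 from 28.6 to 21.8 CPM (both -3.34, lower on both scales), and SNRNP70, the U1 protein grouped with them, rose from 5.38 to 102 CPM (1.27).

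Giant and cytoskeletal mRNAs mostly rose. Of 43 giant mRNAs, 29 rose, 6 fell and 8 were not called after scaling (median 0.42), and 42 rose in share. NBEAL1 was the 1 member lower in share. KMT2C (-0.59) and LRBA (-0.48) fell after scaling, and the number of members lower was 3 without fraction 7 replicate 2, fraction 8 replicate 1 or fraction 8 replicate 2. Among 30 actin nucleator and cytoskeletal scaffold mRNAs, 22 rose (median 0.53). AKAP12, a kinase scaffold, went from 108 to 2109 CPM (1.39, SE 0.09), and the formin DAAM1 from 3.20 to 64.8 CPM (1.39, SE 0.08). CLASP1 (-0.91) and CLASP2 (-0.78), which stabilise microtubule ends, fell after scaling while rising in share.

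Most metabolic and stress response mRNAs named here rose on both scales. Glycolytic enzymes rose in 14 of 17 with none lower (median 0.72), among them PFKL (1.06), ENO1 from 24.7 to 352 CPM (0.91), GPI (0.81) and PKM (0.74). Of 22 integrated stress response mRNAs, 18 rose (median 0.40), with the amino acid carrier SLC7A5 from 8.10 to 144 CPM (1.19), PHGDH of serine synthesis (1.01) and SESN2 (1.01). DDIT3, the CHOP factor of the same response, was the 1 member lower after scaling, from 8.04 to 20.1 CPM (-1.57). Of 24 cholesterol genes, 12 rose (median 0.34), among them the regulator SREBF2 (1.17) and the enzyme DHCR7 (1.10).

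Of 22 heat shock chaperones tested, 16 rose (median 0.46), including HSP90AB1 from 20.7 to 309 CPM (0.97) and the chaperonin subunit CCT7 (0.87). The small HSPB1 fell on both scales from 50.7 to 29.8 CPM (-3.68), and HSPE1 (-2.22) and DNAJB6 (-0.90) fell after scaling only. In the endoplasmic reticulum list, 13 of 28 rose and 11 fell (median 0.16). The small membrane subunits SSR4 (-3.33) and OST4 (-3.08) fell on both scales.

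DNA replication mRNAs rose in 23 of 40 (57.5%) and fell in 6 (15%), with a median of 0.25. The small subunits POLD4 (-3.02) and RPA3 (-2.09) were among those lower. Nuclear pore mRNAs rose in 18 of 29 (62.1%) and fell in 3 (10.3%), with a median of 0.27. NUP62 (0.99) and NUP210 (0.96) were higher and NUP54 was lower after scaling (-1.23). Centromere mRNAs gave 11 higher and 9 lower of 29 (median 0.08) and anaphase promoting complex mRNAs 6 and 6 of 16 (median 0.03). Over protein coding genes, 38.05% were higher and 23.2% lower (median 0.22), so a larger part of both lists was lower. CENPX (-3.19) fell on both scales, and CENPN (-2.68), ANAPC11 (-3.02) and ANAPC15 (-2.72) after scaling only.

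**Figure D4:**
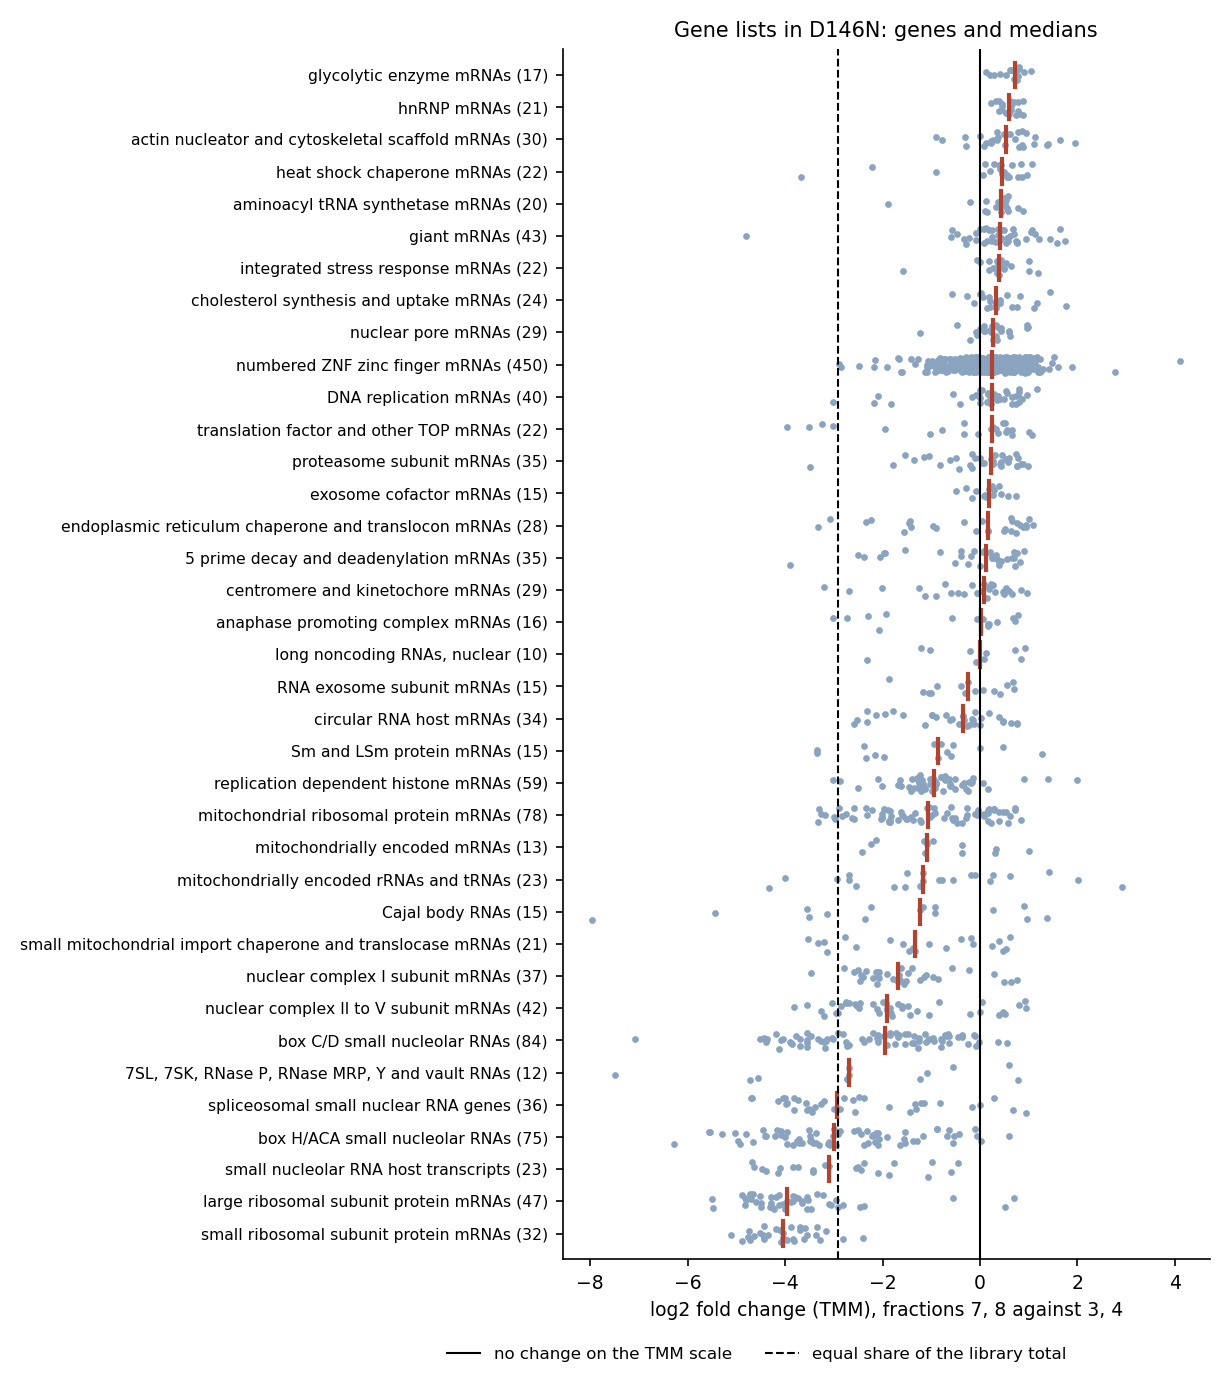
Scaled log2 fold change (TMM) of every tested member of 37 gene lists, fractions 7 and 8 against 3 and 4 in D146N, with a red bar at each list's median and the number tested in parentheses. Ribosomal protein mRNAs lie at medians of -4.05 and -3.96 and glycolytic enzyme mRNAs at 0.72, the solid line marks 0, and members right of the dashed line gained share of the library.

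Gene span, the length from annotated start to end, was described across 13441 tested protein coding genes. Those up to 2 kb had a scaled median of -1.13, with 8.40% higher and 63.4% lower, and without ribosomal protein and histone genes the median was -1.32 over 205 genes. The median was 0.01 from 2 to 5 kb and highest, at 0.32, from 10 to 20 kb. Above 200 kb it was -0.01, with 24.6% higher and 32.1% lower. The order therefore rose and then fell with span. Long noncoding RNA genes had a median of -1.20 over 1420, with 6.06% higher and 57.8% lower. Transcript length, protein length and exon number were not analysed here.

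Neighbouring fractions on a side were not told apart gene by gene. Fraction 8 against 7 gave 0 calls of 18907 (0.0%), with 653 genes at an unadjusted p under 0.05, and fraction 4 against 3 gave 0 (0.0%), with 765 (edgeR's quasi-likelihood test). Both numbers are lower than that threshold alone would give if no gene differed. Fraction 8 against 7 gave 2 calls without fraction 7 replicate 1, and both comparisons gave 0 without WT fraction 8 replicate 3. Zero calls do not show that neighbouring fractions hold the same RNA.

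In WT cells the same fractions ran largely the other way. Of 10561 genes called in both D146N and WT, 10491 moved in opposite directions and 70 in the same, 12 higher and 58 lower. The difference of the 2 contrasts, tested as an interaction, was called for 14574 genes (77.1%), 7883 (41.7%) more positive and 6691 (35.4%) more negative in D146N. The median WT gene stood at -2.83 in share and -0.18 after scaling, against 3.00 and 0.10 in D146N. Without WT fraction 8 replicate 3, a choice made after seeing the data, 10874 of 10961 genes moved in opposite directions and the difference was called for 14943. In the same fit 6050 genes were higher and 5897 lower in D146N, the median WT gene stood at -0.22, and the errors of RPL12 and RPPH1 were 0.02 and 0.03 instead of 0.09 and 0.13.

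The mirrored pattern held for the leading genes. In WT, RNase P RNA averaged 0.575% of counts in fractions 3 and 4 but 12.99% in fractions 7 and 8 (13.3% without WT fraction 8 replicate 3), against 14.1% and 0.593% in D146N. RPL12 changed by 5.33 in WT against -5.50, DIAPH1 by -3.80 against 1.95, SCARNA2 by -2.08 against 1.38 and DIS3 by -1.48 against 0.56. For DIAPH1, SCARNA2 and DIS3 the rise in D146N was smaller in size than the fall in WT. Across all genes the correlation of the 2 contrasts was -0.88 (Pearson) and -0.86 (Spearman), and -0.86 and -0.85 without that library. Genes are not independent replicates, and each contrast has its own libraries.

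**Figure D5:**
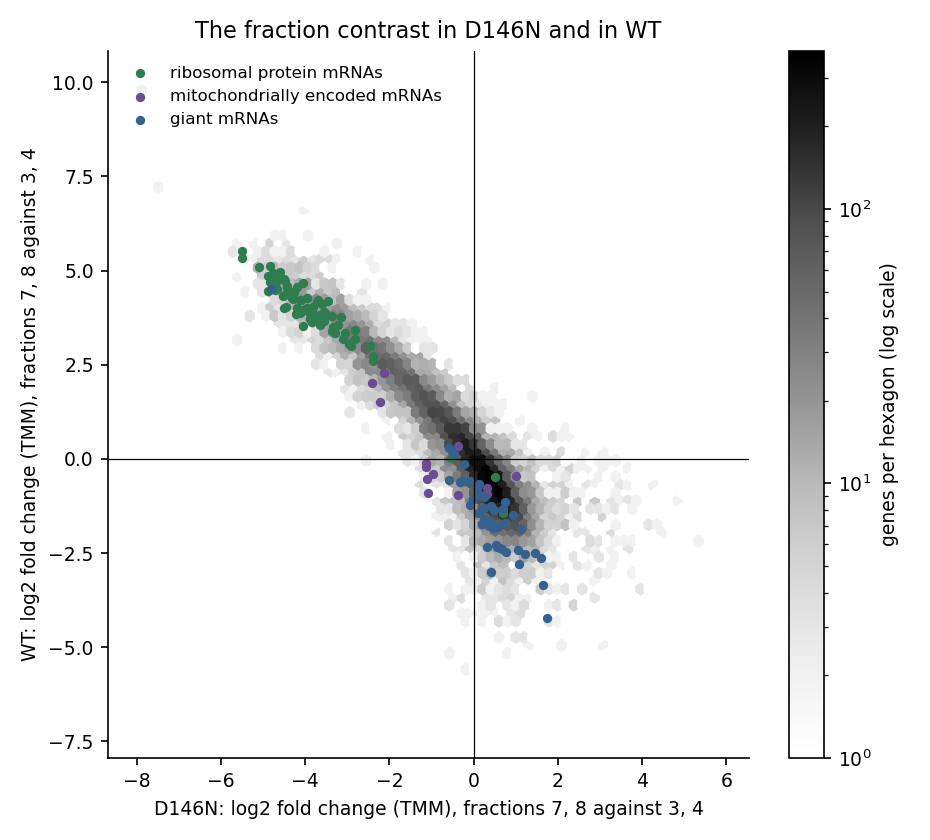
Scaled log2 fold change (TMM) of fractions 7 and 8 against 3 and 4 in D146N (horizontal) and in WT (vertical), with tested genes binned in hexagons shaded by number on a log scale and 3 gene groups as points. Ribosomal protein mRNAs lie high in WT and low in D146N apart from RPL3 and RPL4, while several mitochondrially encoded mRNAs are below 0 in both.

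Of the 70 genes called with the same sign in both, 61 changed by less than 1 on the scaled log2 measure in D146N, and all 70 ran from -3.94 to 0.85 with a median of -0.33. KIF20B, a mitotic kinesin, stood at -0.30 in D146N and -1.56 in WT, STRADB at -0.31 and -1.52, and the adiponectin receptor ADIPOR1 at -0.15 and -1.93, on the scaled measure. In share the D146N values were positive, at 2.62, 2.61 and 2.77. KIF20B and STRADB lost their D146N calls without any 1 of 5 libraries (fraction 7 replicate 1 or 2 and fraction 8 replicate 1, 2 or 3), at -0.13 to -0.16 and -0.13 to -0.18. ADIPOR1 lost its call without fraction 3 replicate 1 or 3 or any 1 library of fractions 4, 7 and 8. It moved between -0.17 and 0.01 when single libraries were left out. It was also not called with fractions summed per replicate number or with small and mitochondrial RNA rows left out. Without a filter on low counts, all 3 lost their calls. LYPLA1, a protein depalmitoylase, stood at -0.39 and -1.32. SRP9, a protein of the signal recognition particle, rose in both, by 0.14 and 0.38, and lost its D146N call without fraction 4 replicate 2 (0.13), with the replicate block (adjusted p 0.0554), with fractions summed per replicate number (adjusted p 0.125) and with identical rows kept once (adjusted p 0.0541).

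In share of the library, mitochondrially encoded mRNAs as a class ran in opposite directions in D146N and WT, with all libraries kept. From fractions 3 and 4 to fractions 7 and 8 their mean share rose from 1.09% to 3.73% in D146N. In WT it fell from 3.41% to 0.959%. On the scaled measure, several of these mRNAs departed from the mirror. MT-CO2 (-2.41 in D146N, 2.03 in WT) and MT-CO3 (-2.14 and 2.29) ran in opposite directions, but MT-ND1 (-1.10 and -0.52), MT-ND2 (-1.12 and -0.21), MT-ND4 (-0.97 and -0.40) and MT-ND4L (-1.09 and -0.92) were negative in both. For MT-ND1 the difference was -0.58 (adjusted p 0.0944), and for MT-ND4L the adjusted p was 0.109. These WT values lean on 1 library: without WT fraction 8 replicate 3, MT-ND1 stood at -0.97 in WT with a difference of -0.12 (adjusted p 0.000655), MT-ND2 at -0.36, MT-ND4 at -0.56 and MT-ND4L at -0.999 in WT, and MT-ATP8, not called at -0.38 in D146N, was called at -0.36.

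The name of the line comes from the labels, and the marker genes read here do not by themselves identify the cells. All 12 genes listed for 293 cells were read, with a summed level of 46.0 to 54.0 CPM in fractions 3 and 4 and 366 to 402 CPM in fractions 7 and 8, and 9 rose and 1 fell after scaling. VIM (0.33) and LIN28B (0.36) rose, and EYA1 fell after scaling (-2.08) with a share change of 0.85. Liver markers were read too: 17 of 18 had counts, CYP3A4 being at 0 in all 12 libraries, and their sum was 29.6 to 35.8 CPM and then 572 to 626 CPM. In fractions 7 and 8 that sum was above the 366 to 402 CPM of the 293 list. Of 14 tested, 13 rose (median 1.38), with ALB (1.61), AFP (1.37) and APOB (18.2 to 286 CPM, 1.04) among them. Whether other cells contributed to the liver marker counts or to the rise of ALB was not tested. Fibroblast markers summed to 0.655 to 1.39 CPM and then 13.99 to 17.96 CPM with FAP at 0, epithelial markers to 0.853 to 1.83 CPM and then 11.9 to 13.9 CPM with KRT7 at 0, and blood markers to 1.06 to 1.56 CPM and then 1.92 to 2.96 CPM with PTPRC, CD3E and MS4A1 among the 4 of 10 at 0.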

How the data were processed

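Gene counts of 24 libraries were used, 12 of them D146N. What the authors deposited are expected counts, 1 row for each of 61853 Ensembl genes, with no sign of normalization in the values: 73.3% of nonzero values were whole within 0.005. Tools named, without roles, in the submitters' processing notes are featureCounts 1.5.1, SAMtools, HISAT2 2.1.0 and Bowtie2 2.3.5, with the build hg38. The planned tests assumed whole counts, so values were rounded. Symbols were given for 99.9% of rows. Positions came from RefSeq (GRCh38.p14, the build of hg38), which typed 86.0% of tested genes. The labels mention no molecular identifiers, and counts give counting precision only.

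Fits used edgeR 4.0.16 (R 4.3.3): filterByExpr by group, TMM factors or library totals, 8 group means fitted over the 24 libraries with the robust quasi-likelihood method, and p-values adjusted by Benjamini-Hochberg over 18907 genes, called under 0.05. The biological coefficient of variation was 13.8%. DESeq2 1.42.0 was an alternative. Class shares were tested on the logit scale with scipy 1.17.1. On data simulated for the D146N contrast over 18907 genes, 70.1% of genes changed 1.5-fold were recovered, 97.0% of those changed 2-fold and 100% of those changed 4-fold, and 5.82% of calls were false. At these sizes 67, 67 and 66 genes were changed, and all others were kept equal between the D146N sides after scaling. The rates therefore do not speak for a contrast in which 60.2% of genes were called.

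The members, the 42 gene lists and the alternatives were chosen with earlier results of these data known. Named genes, after DIS3, were called with the same sign on both scales, had at least 10 CPM on average and no overlap between sides, and were not pseudogenes or clones. The first 12 protein coding and 8 other genes each way were taken (1 of them and some list members are not reported here), with up to 4 genes each way for the difference from WT and list members of smallest p or of a direction opposite to their list. Genes named to account for small counts (NDUFA9, MALAT1, SNORD3A and the other mitochondrial mRNAs) were chosen after their values were seen.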

Additional observations from a re-analysis of the deposited data

Results flagged for a closer look

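Of the genes called in both genotypes, 10491 moved in opposite directions in D146N and WT, and the difference of the contrasts was called for all of them. Calls of opposite sign in both contrasts nearly ensure a call for their difference, so this is no separate result. The values below are that difference, D146N minus WT, on the scaled log2 measure, in edgeR's quasi-likelihood test. DIS3 differed by 2.04.

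Genes lower in fractions 7 and 8 of D146N had large negative differences. Ribosomal protein mRNAs differed by -10.83 (RPL12), -11.01 (RPLP1), -10.21 (RPS12), -9.75 (RPS13), -9.54 (RPLP2), -9.96 (RPL26) and -9.69 (RPL21). BBLN differed by -10.11, NME2 by -10.05, BOLA3 by -10.18 and NBEAL1 by -9.32. Among noncoding genes the differences were -17.80 for MIR6516, -17.76 for SCARNA16, -14.70 for RPPH1, -11.43 for SNHG20, -9.88 for CRNDE, -9.36 for SNHG5, -9.29 for MIR4426 and -8.53 for RN7SK.

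Genes higher in fractions 7 and 8 of D146N had positive differences. They were 5.98 for AHNAK2, 5.75 for DIAPH1, 5.05 for SPECC1, 5.002 for AHNAK, 4.44 for PRKCA, 4.24 for MACF1, 3.85 for COL4A1, 3.72 for TNKS1BP1, 3.51 for ZNF316, 3.37 for KANK2, 3.05 for CDC37 and 2.55 for ALB. Among noncoding and mitochondrial genes they were 4.12 for MT-RNR2, 3.46 for SCARNA2, 2.99 for both SCARNA9 and HNRNPUL2-BSCL2, 2.72 for SCARNA17, 2.52 for VPS9D1-AS1, 2.27 for LINC00205 and 1.48 for MT-ND6. With all libraries kept, MT-RNR2 was not called in WT (-1.20, adjusted p 0.157), so it is not among the genes called in both genotypes. Without WT fraction 8 replicate 3, ALB differed by 2.88, MT-ND6 by 1.69 and MT-RNR2 by 7.13. Genes of the same sign in both genotypes differed by 1.78 (ADIPOR1), 1.26 (KIF20B), 1.21 (STRADB), 0.93 (LYPLA1) and -0.25 (SRP9). A difference of genotype cannot be told apart here from gradients numbered in opposite order or from swapped labels.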

How the results depend on the processing

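On library totals 16800 genes were higher and 772 lower, against 5657 and 5730 with TMM. The other planned fits gave 5347 to 6553 higher and 5463 to 6614 lower, the largest without a filter on low counts (37194 genes tested) and the lowest counts of higher genes with fractions summed per replicate number. Leaving out each D146N library gave 5518 to 6910 higher, 5210 to 5655 lower, 743 to 802 lower on both scales and 14678 to 15209 called for the difference from WT. Without a library of fractions 7 and 8, 56.8% to 57.0% of calls were higher, against 49.7%. Fraction 8 against 7 gave 0 to 2 calls.

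Named genes lower after scaling that were positive on library totals were ADIPOR1 (2.77), KIF20B (2.62), STRADB (2.61), LYPLA1 (2.54), NDUFB8 (0.49), PSMA2 (1.38), H2BC21 (0.84), H3C6 (0.0456), MT-ND3 (0.70), MT-CO2 (0.51), MT-CO3 (0.79), SNORD3B-2 (0.83), RN7SL2 (0.24), PVT1 (0.61), KMT2C (2.33), LRBA (2.45), CLASP1 (2.02), CLASP2 (2.15), CENPN (0.25), ANAPC15 (0.21), RPA3 (0.83), NUP54 (1.70), DDIT3 (1.36), HSPE1 (0.71), DNAJB6 (2.03), RARS1 (1.04), FARSA (2.73), EXOSC1 (1.06), EXOSC8 (1.75), EXOSC4 (1.88), C1D (1.93), DIS3L2 (2.04), EXOSC2 (2.61), ZCCHC7 (2.43), LSM1 (0.55), SETD3 (0.41), CAMSAP1 (0.61), ZNF706 (0.0253) and EYA1 (0.85). This follows from the construction of the 2 scales. Leaving out 1 library at a time, ADIPOR1 ranged from -0.165 to 0.0148 and was 0.00033, 0.0148, 0.00412 and 0.00213 without fraction 7 replicate 1 or 2 or fraction 8 replicate 2 or 3.

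Among class shares (differences of mean logit), 7SL was -0.0726 (adjusted p 0.0105) and spliceosomal RNAs -0.0355 with identical rows kept once, and other rows were -0.629 with small and mitochondrial RNAs left out, where all 7 remaining classes passed. With the replicate block or with 1 value per replicate number, 0 classes passed, since the smallest p possible is 0.25 or 0.1.

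Same-numbered libraries did not deviate together (r -0.067 to 0.047 over 18 pairs), 4 of 12 correlated best with their own number, and the labels do not tie numbers to a set. With the replicate block, 5597 genes were higher and 5687 lower, and 14484 differed from WT. Protein length and exon number were not run. Depth limits calls for genes of few counts, which the filter left out.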

Other observations

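The host genes of circular RNAs and the zinc finger genes are described here. Of 34 host genes of known circular RNAs that passed the filter on low counts, of 35 listed, 22 were lower and 7 higher after scaling (median -0.35), and all 34 rose in share (median 2.58). Over all genes, 30.3% were lower and 29.9% higher after scaling, and 88.9% rose in share. SETD3 went from 26.1 to 34.6 CPM (-2.52) and CAMSAP1 from 26.8 to 42.3 CPM (-2.32), while the atypical cadherin FAT1 (0.76) and the transcription factor FOXO3 (0.76) rose on both scales. Gene counts were not read as counts of a circular form. Of 450 numbered ZNF zinc finger genes tested, of 557 listed, 168 (37.3%) were higher, 56 (12.4%) lower and 226 not called (median 0.26). Over the 13441 tested protein coding genes, 38.05% were higher and 23.2% lower after scaling (median 0.22). The part higher among ZNF genes was therefore near that of protein coding genes, and the part lower was smaller. ZNF768 went from 6.204 to 100.5 CPM (1.11) and ZNF703 from 19.9 to 254 CPM (0.75), and ZNF706, a very short member, stood at 13.5 and 13.7 CPM (-2.90 scaled, 0.03 in share).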
